A study of Mus musculus with 24 samples.

Results

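The genes described here are 10 transcription factor genes of the naive pluripotency network: Nanog, Klf2, Klf4, Klf5, Esrrb, Tfcp2l1, Tbx3, Prdm14, Zfp42 and Nr5a2. They were chosen by name, and every accessible interval that overlapped one of these genes or the 20 kb on either side of it was taken. This gave 244 of the 299780 intervals in the table for untreated cells and 217 of the 272268 in the table for inhibitor-treated cells. Of these, 124 and 109 lay within a gene body, and the others lay in the flanks.

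The assay was ATAC-seq: the transposase Tn5 cuts open chromatin and leaves sequencing adapters at the cuts, so that read number tracks accessibility. The cells were E14, an established mouse embryonic stem cell line, grown on gelatin in medium with fetal bovine serum and leukemia inhibitory factor (LIF). Wild-type cells (WT) and the Smad2 knockout lines Smad2_KO1 and Smad2_KO2 were each sampled untreated (Ctrl) and after 12 h with 200 nM INK128, an inhibitor of the kinase mTOR (Paused). Each of the 6 groups had 4 libraries, 24 in all. Both knockout lines are E14 cells under the same serum and LIF culture, so a difference between knockout and WT is also a difference between separately kept lines. The labels do not say whether the 4 libraries of a group came from separate cultures, and p-values therefore measure the spread between these libraries, which may be technical.

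Naive pluripotency is the state of the inner cell mass before implantation, and mouse embryonic stem cells in serum and LIF hold it through a network of transcription factors that bind each other's regulatory regions. LIF acts through STAT3 on Klf4 and Tfcp2l1, while Esrrb, Nanog and Klf2 link the network to the core factors encoded by Pou5f1 and Sox2. SMAD2 carries Nodal and Activin signals to chromatin together with SMAD4 and partners such as FOXH1. Inhibition of mTOR slows growth and protein synthesis and brings embryonic stem cells into a paused state that resembles embryonic diapause, without loss of pluripotency.

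The promoters of 4 starts are shown because ATAC-seq intervals lie over them and the results below refer back to them. The sequences run from 250 bases before to 50 bases after the annotated start, 5′ to 3′ on the gene's own strand, from RefSeq on GRCm38.p6. Capitals mark matches to the SMAD box CAGAC, the GC-rich SMAD element GGCGCC, the FOXH1 letters AATNNACA, the octamer ATTTGCAT bound by OCT4 and the KLF box GGGTGTGG, on either strand. Esrrb has 2 annotated starts, 60.5 kb apart. The outer one (chr12:86360867-86361166, plus strand) and the inner one (chr12:86421394-86421693, plus strand) are both given, with Nanog (chr6:122707239-122707538, plus strand) and Zfp42 (chr8:43306960-43307259, minus strand).
Esrrb outer start: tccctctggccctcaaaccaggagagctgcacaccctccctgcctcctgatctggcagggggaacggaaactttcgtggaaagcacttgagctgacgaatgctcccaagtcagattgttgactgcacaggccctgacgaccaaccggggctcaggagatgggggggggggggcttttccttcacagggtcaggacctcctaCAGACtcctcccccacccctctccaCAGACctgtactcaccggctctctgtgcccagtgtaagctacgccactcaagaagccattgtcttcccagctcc
Esrrb inner start: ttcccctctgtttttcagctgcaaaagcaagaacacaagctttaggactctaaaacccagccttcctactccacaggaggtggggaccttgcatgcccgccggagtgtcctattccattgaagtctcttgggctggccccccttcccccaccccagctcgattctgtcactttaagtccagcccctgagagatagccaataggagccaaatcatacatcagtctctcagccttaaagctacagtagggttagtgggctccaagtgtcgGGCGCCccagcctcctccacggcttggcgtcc
Nanog: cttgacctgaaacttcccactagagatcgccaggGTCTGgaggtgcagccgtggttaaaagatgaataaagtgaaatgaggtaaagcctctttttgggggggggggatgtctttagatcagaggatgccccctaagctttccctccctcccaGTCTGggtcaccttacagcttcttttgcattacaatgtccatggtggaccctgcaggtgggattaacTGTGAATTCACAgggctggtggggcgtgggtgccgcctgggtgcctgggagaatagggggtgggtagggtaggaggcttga
Zfp42: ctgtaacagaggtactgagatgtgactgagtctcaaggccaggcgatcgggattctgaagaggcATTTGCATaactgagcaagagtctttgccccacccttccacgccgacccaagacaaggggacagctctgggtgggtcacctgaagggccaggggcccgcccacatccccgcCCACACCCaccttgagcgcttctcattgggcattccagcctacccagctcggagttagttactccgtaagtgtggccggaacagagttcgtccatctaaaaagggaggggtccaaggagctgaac

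The outer Esrrb promoter held the SMAD box at -49 and at -24 from the start, and the inner one held the GC-rich SMAD element, a palindrome, at 19. In the Nanog promoter the SMAD box occurred on the minus strand at -216 and -98. Its FOXH1 letters at -31 and -27 overlap each other on opposite strands. The Zfp42 promoter held the octamer at -186 and the KLF box, on the minus strand, at -75. These letters are short, and many promoters have them. Of 32851 RefSeq promoters of the same length, 49.6% held the SMAD box, 11.9% the GC-rich element, 12.2% the FOXH1 letters, 1.74% the octamer and 3.56% the KLF box. Among the 10 promoters that the table gives for 7 of the 10 genes, 3 held the SMAD box, 2 the GC-rich element, 3 the FOXH1 letters, 1 the octamer and 1 the KLF box. The 2 Nanog promoters among them overlap, so 2 of the 3 with the SMAD box and 2 of the 3 with the FOXH1 letters share the same Nanog matches. The other motifs searched had no match in these 10: the nuclear receptor letters AAGGTCA used by ESRRB and NR5A2 (4.72% of all promoters), the STAT3 letters TTCCNGGAA (1.15%), and the PPAR direct repeat, a pair of AGGTCA sites 1 base apart (0.0396%).

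Values below are normalized read counts per 201-base interval, as deposited. Reads in the intervals, in megareads, came to between 11.8 and 16.5 per library in Ctrl and between 11.5 and 20.0 in Paused. Strongest intervals at 5 marker genes of embryonic stem cells had levels of 44.9 to 473 in Ctrl and 71.4 to 599.5 in Paused. Those at 5 genes of unrelated tissues (Ptprc, Alb, Myod1, Cdh5 and Cd3e) had 22.6 to 91.1 and 23.3 to 94.5, so the ranges overlap at their ends. Primitive endoderm genes had 113 to 259 and 143 to 291, and trophoblast genes had 22.3 to 459 and 90.3 to 486. Open chromatin at these genes is not expression, and the part of other cell types in the results was not tested. ATAC-seq does not check the deletion: at the strongest interval of Smad2 the 3 lines overlapped in both tables. In Paused, replicate 2 of Smad2_KO1 and of Smad2_KO2 differed by no more than sampling noise (chi-square per degree of freedom 1.001, limit 1.0055), and counts without either of them are given beside the Paused result.

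Across the 10 genes most intervals were not called different between knockout and WT. In Ctrl, 11 of 239 tested intervals (4.6%) were called in both knockout lines against WT, with the same direction and an adjusted p under 0.05 in each line (limma with Benjamini-Hochberg adjustment over all intervals). Of these 8 were higher (3.35%) and 3 lower (1.26%) in the knockouts. Both lines were compared with the same WT libraries, so their calls are not independent of each other. Of all 282089 tested Ctrl intervals, 7.15% were called, 3.95% higher and 3.2% lower. In Paused, 21 of 209 tested intervals (10.0%) were called, 15 higher (7.18%) and 6 lower (2.87%), against 13.9% of all 260539, 9.01% higher and 4.92% lower. Without Smad2_KO2 replicate 2 the Paused count was 13, and without Smad2_KO1 replicate 2 it was 15. Of all Paused intervals 9.68% and 9.74% were called there. It was also 13 without Smad2_KO2 replicate 3 (11.1% of all). The Ctrl count fell to 6 without Smad2_KO1 replicate 1 (5.06% of all).

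The filter for testing (a value of at least 10 in 4 or more libraries) left out 5 intervals in Ctrl and 8 in Paused. Of the called intervals, 1 in Ctrl and 4 in Paused had fewer than 4 WT libraries at that value and 3 of these, all in Paused and at Nanog, Esrrb and Nr5a2, had 0. They were tested only because the knockouts were high there, so that being tested and being higher are not independent. Against WT alone, Smad2_KO1 had 24 called intervals in Ctrl (10.0%, against 11.6% of all) and Smad2_KO2 had 15 (6.28%, against 10.7%). In Paused they had 30 (14.4%, against 19.4%) and 35 (16.7%, against 19.3%). Each of these shares lay below that of all intervals, but the difference was not tested and did not hold in every setting. With loess offsets in Ctrl, 28 of 239 were called in Smad2_KO1, against 10.4% of all. With gene bodies alone in Paused, 16 of 105 were called in both lines, against 13.9% of all. The median log2 fold change of the tested intervals, as the mean of both knockout lines, was 0.07 in Ctrl and 0.14 in Paused, against 0.08 and 0.12 over all intervals. No interval of these genes was called between Smad2_KO1 and Smad2_KO2, where 0% of all intervals were. At an unadjusted p under 0.05, limma gave 10 in Ctrl and 5 in Paused, where it gave 9247 (3.28%) and 5124 (1.97%) of all intervals. Both shares over all intervals lie under the 1 in 20 that chance alone would give. Why was not tested, and the lack of calls does not show that the lines agree. With edgeR and DESeq2, 0 intervals of these genes were called between the lines.

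The share of called intervals that were higher depended on the scaling. With DESeq2 size factors, the Paused calls were 18, of which 6 were higher, and with TMM factors 7 of 18 were higher, against 15 of 21 with the authors' scaling. With loess offsets 14 of 17 were higher. The count tests on recovered reads gave 6 higher and 13 lower with edgeR and 2 higher and 9 lower with DESeq2. The calls among all intervals moved as well: in Paused 64.7% were higher with the authors' scaling (13.9% called), 41% with size factors (14.7% called), 43.8% with TMM (14.4%), 47.8% with loess (9.65%), 37.9% with edgeR (14.5%) and 26.8% with DESeq2 (8.89%). For Smad2_KO1 alone, 18 of 24 calls in Ctrl and 23 of 30 in Paused were higher, against 10 of 23 and 10 of 31 with size factors and 10 of 23 and 11 of 29 with TMM. With loess these were 15 of 28 and 17 of 27, and with edgeR 9 of 24 and 9 of 29. For Smad2_KO2 in Paused, 26 of 35 were higher, against 16 of 30 with size factors, 16 of 29 with TMM, 19 of 25 with loess and 13 of 28 with edgeR. For Smad2_KO2 in Ctrl these were 9 of 15, 8 of 15, 8 of 14, 9 of 14 and 7 of 13. Over all intervals 61.1% of the Smad2_KO1 calls were higher in Ctrl and 66.2% in Paused, against 41.2% and 43.9% with size factors. For Smad2_KO2 these were 54.6% and 64.4%, against 40.3% and 43.2%. In Ctrl 8 of 11 calls in both lines were higher, against 6 of 9 with size factors and with TMM, 9 of 13 with loess, 5 of 9 with edgeR and 5 of 8 with DESeq2. Over all Ctrl intervals 55.2% of the calls were higher with the authors' scaling, 37.4% with size factors, 39.4% with TMM, 40.9% with loess, 33.3% with edgeR and 22.7% with DESeq2. Over all intervals the median log2 fold change was 0.08 in Ctrl and 0.12 in Paused with the authors' scaling, and 0.01 and 0.02 with size factors. Of the 11 Ctrl calls 8 held under size factors, TMM and loess alike, 5 higher and 3 lower. Of the 21 Paused calls 6 did, 4 higher and 2 lower. None of the called intervals changed sign under any alternative.

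**Figure D1:**
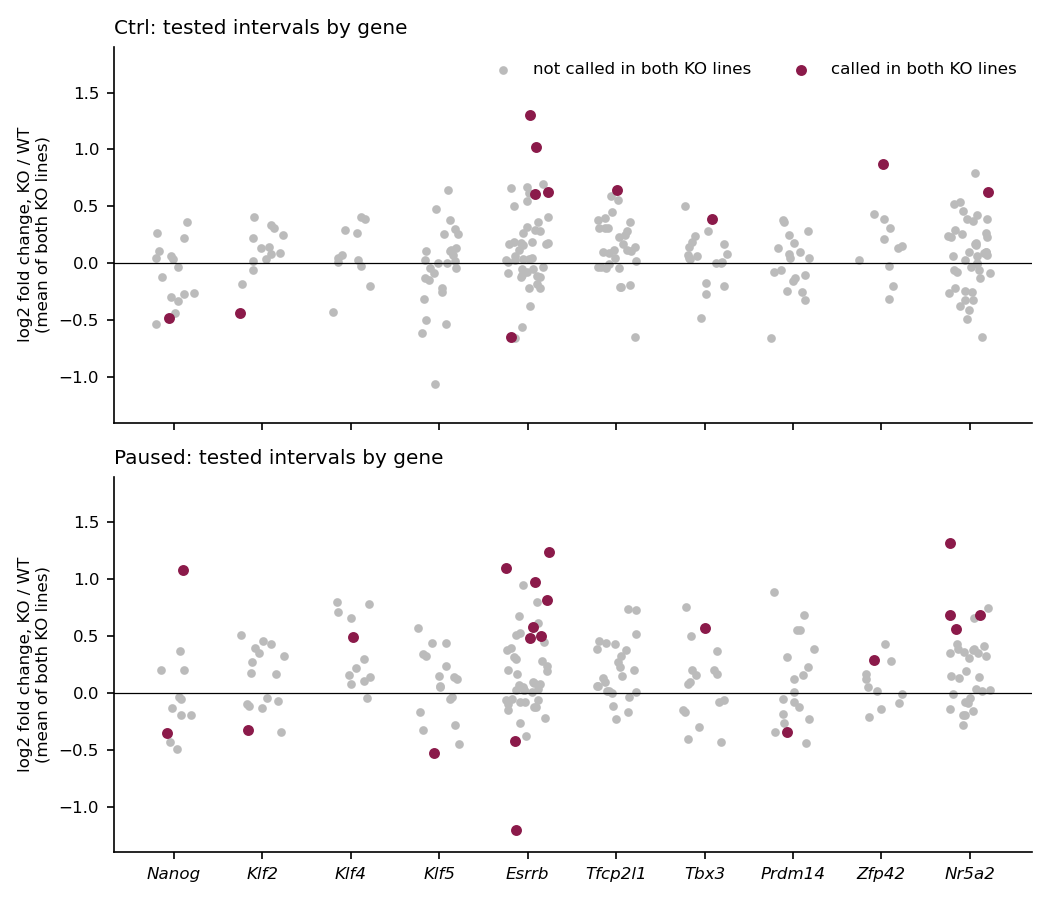
Log2 fold change of knockout over WT (vertical axis, mean of both knockout lines, log2(value + 1) scale) for every tested interval of each gene, in Ctrl (top) and Paused (bottom). Dark points are the 11 and 21 intervals called in both knockout lines. Esrrb holds 5 of the 11 and 9 of the 21.

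The strongest interval of each gene was then compared between lines. Of the 10 strongest intervals 1 was called in Ctrl, that of Tbx3, and 0 in Paused, where the median log2 fold change over the 10 was -0.05 (0.03 in Ctrl). To set this beside other intervals of like strength, all tested intervals were split by mean level at the 90th percentile (112 in Ctrl and 137 in Paused). Above it, 8.34% were called in Ctrl (1.88% higher, 6.46% lower) and 20.1% in Paused (2.04% higher, 18.1% lower). Of the intervals of these genes above it, 4 of 41 were called in Ctrl, 2 in each direction, and 5 of 35 in Paused, 1 higher and 4 lower. Below it 7 of 198 were called in Ctrl, 6 of them higher, and 16 of 174 in Paused, 14 of them higher. The background there was 7.01% in Ctrl (4.18% higher, 2.84% lower) and 13.2% in Paused (9.79% higher, 3.46% lower), also mostly higher.

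**Figure D2:**
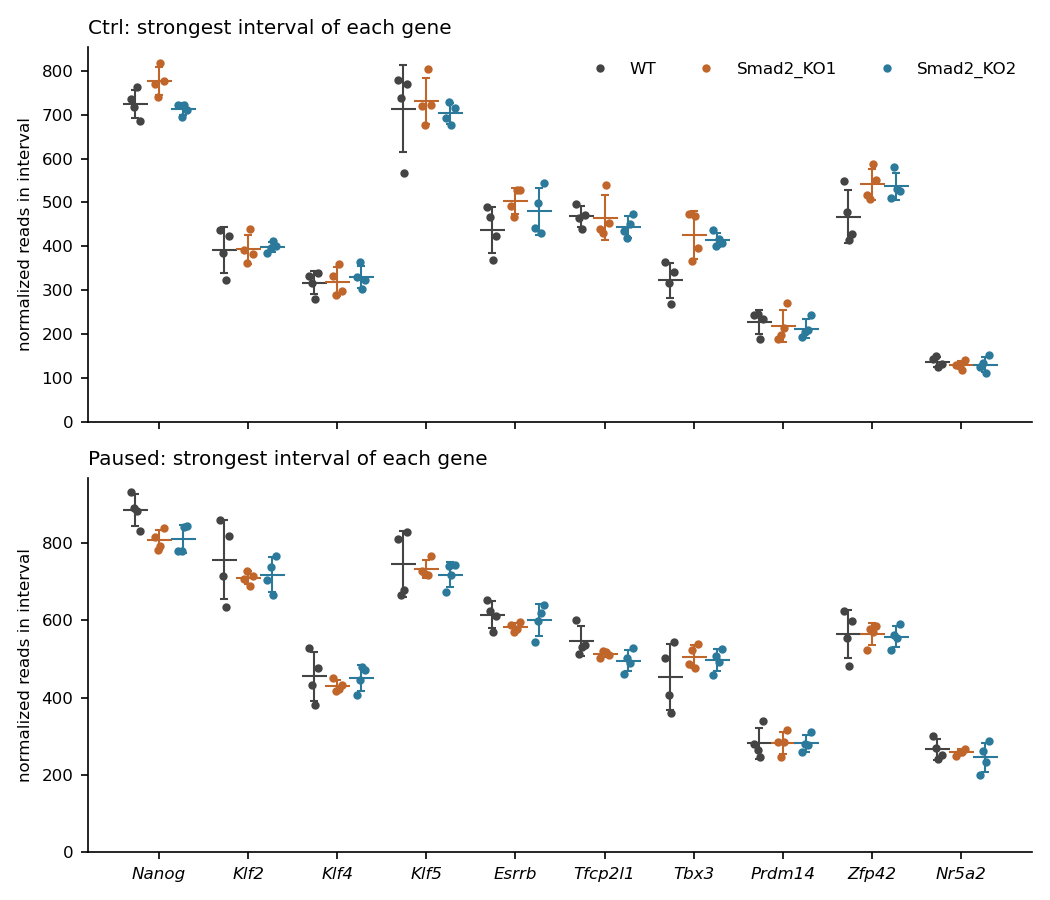
Normalized reads (vertical axis) in the strongest interval of each gene, in Ctrl (top) and Paused (bottom), with 1 point per library and the mean and SD of each line. Knockout and WT libraries overlap at every gene except Tbx3 in Ctrl, where all 8 knockout libraries lie above all 4 WT libraries.

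Nanog, a homeodomain factor whose level sets how firmly cells hold the naive state, spans chr6:122707489-122714633 in mm10. Its strongest interval, chr6:122702574-122702774, lies 4.82 kb upstream of the start and ranked 71 among the tested intervals of the Ctrl table. It held 735, 717, 762 and 685 in the WT libraries, 771, 740.2, 819 and 776 in Smad2_KO1, and 722.5, 694, 722 and 710.5 in Smad2_KO2. Both knockout lines overlapped WT, with adjusted p = 0.375 and 0.871 (limma). In Paused the same site ranked 27 and held 933, 891, 884 and 832 in WT, 817, 781, 792 and 840.25 in Smad2_KO1, and 779, 779, 842 and 843 in Smad2_KO2. Most knockout libraries lay under WT there, but the difference was not called (log2 fold change -0.13 ± 0.07 (SE) in both lines, limma adjusted p = 0.151 and 0.169). The difference passed under 3 of 27 alternatives.

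The interval over the Nanog start, which overlaps the promoter shown above, was weaker. It averaged 233 ± 30.7, 244 ± 16.0 and 258 ± 25.5 in WT, Smad2_KO1 and Smad2_KO2 in Ctrl, and 317 ± 24.1, 312 ± 14.0 and 303 ± 13.0 in Paused (SD, n = 4 each), and was not called. The upstream interval exceeded it in all 12 libraries of each table, 3.01-fold in Ctrl and 2.69-fold in Paused.

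The called difference at Nanog lay past its 3′ end. The interval chr6:122715942-122716142, 8.55 kb from the start, held 194, 276, 259.6 and 189 in WT in Ctrl, 144, 192, 151 and 184 in Smad2_KO1, and 160.3, 170.2, 140.2 and 161 in Smad2_KO2. WT and Smad2_KO1 touched at 1 library each, and Smad2_KO2 lay wholly under WT. Log2 fold changes were -0.44 ± 0.12 and -0.52 ± 0.12 (SE), with limma adjusted p of 0.00824 and 0.00195. The matching interval in Paused held 227, 191, 213 and 209 in WT, 177, 194, 168 and 140.04 in Smad2_KO1, and 166, 169, 147 and 155 in Smad2_KO2. It was also called lower, by log2 fold changes of -0.31 ± 0.10 and -0.39 ± 0.10 (limma adjusted p = 0.0304 and 0.00664). The Ctrl call was lost without WT replicate 2 or without Smad2_KO1 replicate 1 (highest adjusted p 0.0571). The Paused call was lost under loess, without the WT pair 1 and 2 or 3 and 4, and without WT replicate 1 or Smad2_KO1 replicate 3 or 4 (highest 0.151). In Paused a weak interval 11.6 kb upstream of Nanog was called higher, from 4.43 ± 1.29 in WT to 10.6 ± 4.53 and 10.6 ± 2.71 (log2 fold changes 1.05 and 1.10, limma adjusted p = 0.045 and 0.0351), a call lost under 15 of 27 alternatives. No WT library reached 10 there, so it was tested only through the knockouts.

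The Krüppel-like factors KLF2, KLF4 and KLF5 are zinc-finger proteins that bind overlapping sites and can stand in for each other in part. At Klf2 (chr8:72319062-72321654) the called interval lay 7.76 kb upstream, chr8:72311205-72311405. It held 176, 182, 176 and 202 in WT in Ctrl, 132, 106, 164 and 158 in Smad2_KO1, and 114, 135, 142 and 139.9 in Smad2_KO2. All 8 knockout libraries lay under all 4 WT libraries, with log2 fold changes of -0.41 ± 0.12 and -0.47 ± 0.12 (limma adjusted p = 0.0164 and 0.00604). In Paused it held 287, 262, 266 and 264 in WT, 209, 214, 223 and 225 in Smad2_KO1, and 157, 211, 238 and 266 in Smad2_KO2. It was called lower again (-0.31 ± 0.11 and -0.33 ± 0.11, limma adjusted p = 0.0376 and 0.0251), although the highest Smad2_KO2 library lay within the WT range. The Ctrl call was lost without WT replicate 4, without Smad2_KO1 replicate 1 or 2 and without WT replicates 3 and 4 (highest adjusted p 0.118), and the Paused call under 12 of 27 alternatives.

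The Klf2 start itself was among the most open sites of these genes in Paused. The interval over it held 860.3, 714, 635 and 818 in WT, 707, 729, 689 and 716 in Smad2_KO1, and 704, 738, 665 and 768 in Smad2_KO2, and the lines overlapped (limma adjusted p = 0.468 and 0.567). In Ctrl the strongest interval was centred 0.236 kb upstream of the start, too far from the Paused one to be matched with it. It averaged 392 ± 51.7 in WT, 393 ± 32.7 in Smad2_KO1 and 398 ± 11.7 in Smad2_KO2.

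Klf4 (chr4:55527137-55532475) had its strongest interval downstream, 17.6 kb from the start (chr4:55514795-55514995), at 317 ± 26.3, 319 ± 32.6 and 329.9 ± 25.0 in Ctrl. It was not called in either table. A weaker interval inside the gene, chr4:55530906-55531106, was called higher in Paused. It held 56.1, 68.7, 53.95 and 96.7 in WT, 97.9, 110.6, 103 and 93.4 in Smad2_KO1, and 87.9, 96.0, 83.1 and 88.6 in Smad2_KO2. A single WT library reached the knockout range, and the call (0.58 ± 0.14 and 0.40 ± 0.14, limma adjusted p = 0.00311 and 0.0397) was lost under 14 of 27 alternatives, size factors and TMM among them.

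Klf5 (chr14:99298691-99313412) had an interval at its low-coordinate end, chr14:99298485-99298685, that averaged 714 ± 99.4, 731 ± 53.3 and 703 ± 23.8 in Ctrl and 746 ± 85.5, 733 ± 22.6 and 719 ± 31.9 in Paused. It was not called. An interval in the gene body, chr14:99305483-99305683, was lower in the knockouts in Paused. WT held 66.9, 42.9, 53.95 and 67.5, Smad2_KO1 held 42.8, 39.9, 35.4 and 34.8, and Smad2_KO2 held 36.0, 39.75, 41.5 and 42.7. The knockout libraries all lay under WT, the nearest by under 1 normalized read (-0.57 ± 0.17 and -0.50 ± 0.17, limma adjusted p = 0.0133 and 0.0283). The call was lost without WT replicate 1 or 4, without Smad2_KO2 replicate 1 or 2 and without WT replicates 3 and 4. In Ctrl the matched interval went from 49.1 ± 9.77 to 35.2 ± 6.34 and 43.5 ± 6.42 and was not called (limma adjusted p = 0.0728 and 0.612).

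Esrrb, an orphan nuclear receptor and a central target of the network, had the most called intervals: 5 of 47 tested in Ctrl (4 higher, 1 lower) and 9 of 47 in Paused (7 higher, 2 lower). Its gene spans 161 kb (chr12:86361117-86521628), the longest of the 10, and 41 of its intervals in each table lay inside it. Of its intervals, 10.6% and 19.1% were called, where the background was 7.15% and 13.9%, and no test of that difference was made. Its strongest interval lay 141 kb from the outer start, chr12:86501787-86501987, and averaged 437 ± 53.1, 503 ± 29.8 and 479 ± 52.8 in Ctrl and 615 ± 34.5, 583 ± 10.9 and 600.1 ± 41.3 in Paused. It was not called in either table.

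A pair of Esrrb intervals downstream of the inner start was called higher in both tables. The first, chr12:86435733-86435933, lies in the gene body 74.7 kb from the outer start. In Ctrl it held 50.2, 42.1, 34.0 and 41.0 in WT, 86.3, 94.6, 82.5 and 90.1 in Smad2_KO1, and 76.2, 85.55, 70.1 and 101 in Smad2_KO2. In Paused it held 60.45, 69.8, 75.5 and 66.2 in WT, 116, 152, 143 and 124 in Smad2_KO1, and 115, 151, 135 and 147 in Smad2_KO2. Every knockout library lay above every WT library in both tables. Log2 fold changes were 1.07 ± 0.15 and 0.97 ± 0.15 in Ctrl (limma adjusted p = 1.32e-06 and 7.58e-06) and 0.96 ± 0.12 and 1.00 ± 0.12 in Paused (8.64e-07 and 4.64e-07). The second, chr12:86451004-86451204, lies 90.0 kb from the outer start. In Ctrl it held 88.65, 83.3, 90.9 and 87.35 in WT, 168, 135, 155 and 122 in Smad2_KO1, and 135, 132, 134 and 101 in Smad2_KO2. In Paused it held 90.7, 111, 105 and 82.1 in WT, 167, 155, 164 and 119 in Smad2_KO1, and 138, 169, 125 and 127 in Smad2_KO2. Here too all knockout libraries exceeded all WT libraries. Log2 fold changes were 0.71 ± 0.12 and 0.50 ± 0.12 in Ctrl (limma adjusted p = 7.91e-05 and 0.00449) and 0.63 ± 0.12 and 0.52 ± 0.12 in Paused (0.000387 and 0.00286). Both kept their call in each table under 26 of 27 alternatives, and missed it only where the size of the log2 fold change also had to reach 1 in each line.

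**Figure D3:**
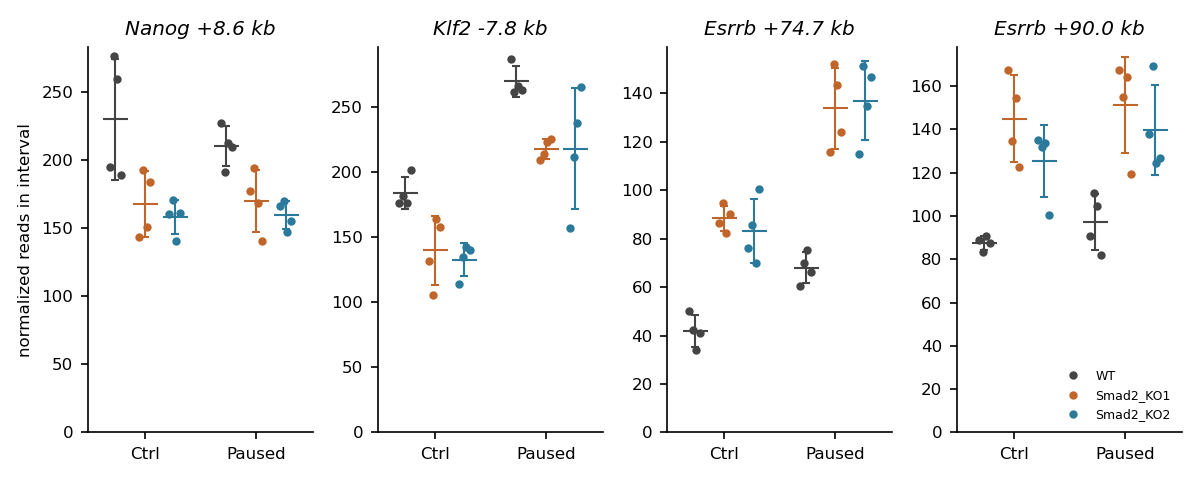
Normalized reads (vertical axis, from 0) in the 4 sites called in both tables, in Ctrl and Paused, with 1 point per library and the mean and SD of each line. The Nanog and Klf2 sites are lower and the Esrrb sites higher in the knockouts, and distances in the panel titles are from the annotated (for Esrrb, the outer) start.

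These Esrrb sites, with those named above at Nanog and Klf2, were the 4 called in both tables, and the Esrrb pair was singled out after the values were seen. All 11 Ctrl calls had a matching interval in Paused and all 11 had the same sign there. Of the 21 Paused calls 14 had a match in Ctrl and 13 had the same sign. No site was called in opposite directions. Over all intervals, 85.8% of the Ctrl calls and 86.1% of the Paused calls had a match. Of the 17297 matched Ctrl calls, 99% of those tested in Paused had the same sign there and 59.2% were called in both tables. For the 31239 matched Paused calls these were 97.7% and 32.8%, and 0 were called in opposite directions. At the 10 genes, 4 of 11 matched Ctrl calls and 4 of 14 matched Paused calls were called in both tables. The difference from all intervals was not tested. The tables were normalized separately, and whether a knockout difference itself differed between Ctrl and Paused was not tested.

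One strong Esrrb site differed in Paused and not in Ctrl. The interval chr12:86466278-86466478, 105 kb from the outer start, held 448, 464, 422 and 452 in WT, 349.7, 316, 330.0 and 410.2 in Smad2_KO1, and 284, 295, 331 and 365 in Smad2_KO2 in Paused. All knockout libraries lay under all WT libraries (-0.35 ± 0.09 and -0.49 ± 0.09, limma adjusted p = 0.00469 and 0.000162). The call was lost under loess offsets (limma adjusted p = 0.091). In Ctrl the same site held 335, 262, 326 and 322 in WT, 339, 308, 348 and 315 in Smad2_KO1, and 325, 324, 289 and 306 in Smad2_KO2, and the lines overlapped (0.08 ± 0.09 and 0.00 ± 0.09, limma adjusted p = 0.638 and 0.995). This site was also chosen after its values were seen.

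The promoters of both Esrrb starts are shown above. The inner start was the more open one, 3.09-fold in Ctrl and 2.58-fold in Paused, in 12 of 12 libraries of each table. At the inner start the lines overlapped: 158 ± 11.4, 148 ± 17.6 and 133 ± 15.4 in Ctrl and 218 ± 10.7, 206 ± 13.6 and 204 ± 23.5 in Paused, not called. The outer start held 71.2, 55.8, 64.7 and 63.6 in WT in Paused, 89.3, 94.2, 85.5 and 75.5 in Smad2_KO1, and 88.9, 81.7, 102 and 101 in Smad2_KO2. It was called higher, with all knockout libraries above all WT libraries (0.43 ± 0.13 and 0.54 ± 0.13, limma adjusted p = 0.018 and 0.0032). The call was lost with size factors and TMM, without WT replicate 2, WT replicates 1 and 2 or Smad2_KO1 replicate 1 or 2, and with the count tests (highest adjusted p 0.179). In Ctrl it averaged 38.6 ± 6.79, 57.4 ± 7.13 and 45.9 ± 6.31 and was called in Smad2_KO1 alone (limma adjusted p = 0.0173, and 0.35 in Smad2_KO2).

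The other Esrrb calls were at weaker sites. In Ctrl the largest higher one, chr12:86429369-86429569, went from 8.57 ± 3.07 in WT to 21.0 ± 5.82 and 22.6 ± 1.95, with all knockout libraries above WT (1.23 ± 0.27 and 1.37 ± 0.27, limma adjusted p = 0.00137 and 0.000443), and it kept its call under all 27 alternatives. Only 1 WT library reached the filter's value of 10 there. The largest lower one, chr12:86398942-86399142, held 81.2, 57.3, 109.5 and 123 in WT against 48.5 to 73.1 in Smad2_KO1 and 48.9 to 60.4 in Smad2_KO2. Its WT libraries spread widely, and the call (limma adjusted p = 0.00759 and 0.0059) was lost without WT replicate 4 (0.0671) and without WT replicates 3 and 4 (0.445). In Paused the largest lower one, chr12:86364378-86364578, held 17.3, 17.2, 43.2 and 43.7 in WT, against 6.91 to 16.15 in Smad2_KO1 and 7.86 to 14.25 in Smad2_KO2. The knockouts lay under WT (-1.15 ± 0.31 and -1.25 ± 0.31, limma adjusted p = 0.00684 and 0.00351), and the call was lost without WT replicates 3 and 4 (limma adjusted p = 0.367). The largest higher one in Paused, chr12:86370622-86370822, went from 5.63 ± 3.08 to 14.6 ± 1.47 and 13.5 ± 6.21, a call lost under 8 of 27 alternatives, and no WT library reached 10. The remaining Esrrb calls were all higher. They lay 58.4 kb from the outer start in Ctrl (20.6 ± 3.83 in WT, 31.3 ± 2.57 and 33.1 ± 6.04 in the knockouts) and 19.9, 45.1 and 80 kb from it in Paused. Of these, the site at 80 kb was the strongest (64.1 ± 8.76, 87.2 ± 7.10 and 95 ± 11.2) and the one at 45.1 kb (22.6 ± 7.35, 36.6 ± 4.67 and 43.1 ± 6.13) kept its call under size factors, TMM and loess. The call at 58.4 kb in Ctrl was lost under 16 of 27 alternatives, that at 19.9 kb in Paused, where 1 WT library reached 10, under 17, that at 80 kb under 5 and that at 45.1 kb under 3.

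**Figure D4:**
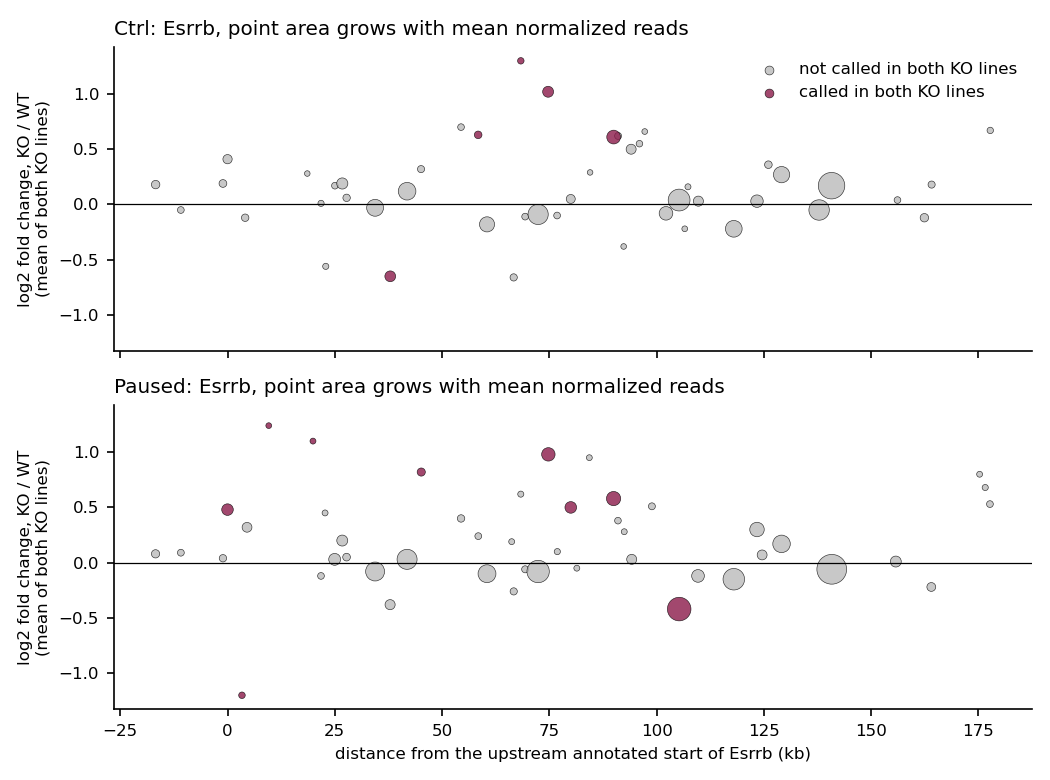
Log2 fold change of knockout over WT (vertical axis, mean of both knockout lines) against distance from the outer Esrrb start in kb (horizontal axis), in Ctrl (top) and Paused (bottom); point area grows with the mean normalized reads. Dark points are called in both knockout lines; the sites at 74.7 and 90.0 kb are higher in both tables, and the site at 105 kb is lower in Paused.

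Tfcp2l1, a CP2-family factor that relays LIF and STAT3 signals, spans chr1:118627923-118685168. Its strongest interval, chr1:118648116-118648316 in the gene body, averaged 468 ± 23.6, 466 ± 50.5 and 444 ± 24.0 in Ctrl and 546 ± 39.0, 513 ± 8.21 and 496 ± 28.0 in Paused and was not called. In Ctrl 1 of 31 tested intervals was called (3.23%, against 7.15% of all). This interval, chr1:118674268-118674468, went from 22.7 ± 5.35 in WT to 35.4 ± 2.52 and 35.6 ± 7.96, with all knockout libraries above WT (0.65 ± 0.20 and 0.63 ± 0.20, limma adjusted p = 0.024 and 0.0284). That call was lost under 10 of 27 alternatives. In Paused 0 of 25 were called in both lines, against 13.9% of all. Against WT alone, 2 (8%) were called in each line, where 19.4% and 19.3% of all were.

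Tbx3, a T-box factor that acts mainly as a repressor, had the 1 strongest interval that was called. It lies at the low-coordinate end of the gene (chr5:119670534-119684724), at chr5:119670746-119670946. In Ctrl it held 363, 317, 269 and 341 in WT, 474, 366, 469 and 395 in Smad2_KO1, and 437, 399.5, 416 and 408 in Smad2_KO2. All 8 knockout libraries lay above WT, by log2 fold changes of 0.40 ± 0.09 and 0.37 ± 0.09 (limma adjusted p = 0.00246 and 0.00529). The call was lost without WT replicates 3 and 4 (limma adjusted p = 0.0753). In Paused it held 503, 407, 360.35 and 544 in WT, 487, 523, 477 and 538 in Smad2_KO1, and 459, 509, 493 and 527 in Smad2_KO2, and the lines overlapped (0.18 ± 0.09 and 0.15 ± 0.09, limma adjusted p = 0.164 and 0.244). In Paused 1 of 17 tested intervals was called (5.88%, against 13.9% of all). This interval, chr5:119651206-119651406, went from 27.5 ± 5.07 to 41.0 ± 6.38 and 41.2 ± 1.85 (limma adjusted p = 0.0222 and 0.0181), a call lost under 11 of 27 alternatives.

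Prdm14, which encodes a PR-domain protein that represses FGF signalling and DNA methylation genes, had 0 of 19 intervals called in Ctrl, against 7.15% of all. In Paused 1 of 19 was (5.26%, against 13.9% of all), chr1:13132118-13132318 in the high-coordinate flank of the gene (chr1:13113428-13127163). It held 257, 229, 188 and 185 in WT, 174, 144, 181 and 164 in Smad2_KO1, and 168, 154, 169.5 and 189 in Smad2_KO2. Only the highest Smad2_KO2 library reached the WT range (-0.36 ± 0.11 and -0.32 ± 0.11, limma adjusted p = 0.0158 and 0.0311), and the call was lost under 10 of 27 alternatives. The strongest interval, chr1:13104020-13104220, averaged 228 ± 26.8, 218 ± 36.6 and 213 ± 21.7 in Ctrl and 283 ± 40.0, 284 ± 28.4 and 282 ± 21.2 in Paused.

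Zfp42, also known as Rex1 and widely used as a marker of naive cells, spans chr8:43295067-43307009 on the minus strand. Its strongest interval lay over the start, in the promoter shown above. In Ctrl it held 549, 479, 415 and 428 in WT, 517, 509, 588 and 551 in Smad2_KO1, and 509, 579.7, 531 and 525 in Smad2_KO2. A single WT library lay among the knockouts, and the difference was not called (0.22 ± 0.08 and 0.20 ± 0.08, limma adjusted p = 0.0787 and 0.105), though it passed under 5 of 27 alternatives. In Paused the lines averaged 565 ± 61.9, 565 ± 27.6 and 558 ± 27.3.

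Distal Zfp42 sites were called. In Ctrl the interval chr8:43326271-43326471, 19.4 kb upstream of the start, held 16.0, 38.5, 34.0 and 29.1 in WT, 50.4, 51.4, 52.5 and 45.05 in Smad2_KO1, and 48.1, 55.5, 59.5 and 55.35 in Smad2_KO2. All knockout libraries lay above WT (0.81 ± 0.18 and 0.93 ± 0.18, limma adjusted p = 0.00241 and 0.000487). In Paused it averaged 53.2 ± 8.07, 68.6 ± 9.89 and 75.0 ± 7.0 and was called in Smad2_KO2 alone (limma adjusted p = 0.0138, and 0.0715 in Smad2_KO1). The interval chr8:43299868-43300068, inside the gene 7.04 kb from the start, was called in Paused. WT held 242, 222, 242 and 229, Smad2_KO1 held 282, 313, 288 and 274, and Smad2_KO2 held 264, 304, 299.7 and 269. No knockout library overlapped WT (0.31 ± 0.09 and 0.28 ± 0.09, limma adjusted p = 0.0123 and 0.022). The call was lost with size factors and TMM, without Smad2_KO1 replicate 2, Smad2_KO2 replicate 2 or 3 or WT replicates 1 and 2, and with the count tests. In Ctrl that site averaged 168 ± 19.0, 214 ± 14.3 and 202 ± 34.0 and was called in Smad2_KO1 alone (limma adjusted p = 0.0257, and 0.117 in Smad2_KO2).

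Nr5a2, the nuclear receptor also known as LRH-1, binds regulatory regions of Pou5f1 and of other genes of the network. Its gene spans 118 kb (chr1:136842562-136960448, minus strand), and its strongest interval was the weakest among the 10 genes, at 137 ± 11.6, 129 ± 9.27 and 130.4 ± 16.9 in Ctrl and 267 ± 26.7, 259.5 ± 7.15 and 246 ± 37.8 in Paused. Neither was called. In Paused 4 of 32 tested intervals were called, all higher (12.5%). Of all intervals 13.9% were called, 9.01% higher and 4.92% lower. The one with the largest change, chr1:136882093-136882293, held 4.32, 7.51, 5.39 and 6.62 in WT, 17.1, 13.6, 22.5 and 21.85 in Smad2_KO1, and 12.0, 12.75, 23.6 and 10.9 in Smad2_KO2. All knockout libraries lay above WT (1.5 ± 0.31 and 1.14 ± 0.31, limma adjusted p = 0.000642 and 0.00767). The call was lost without Smad2_KO2 replicate 3, under loess and with DESeq2 (highest adjusted p 0.0653). No WT library reached 10, so this interval too was tested only through the knockouts. The interval chr1:136939905-136940105, named after its values were seen, held 32.4, 24.7, 23.7 and 26.5 in WT, 46.6, 48.9, 43.2 and 37.7 in Smad2_KO1, and 51.9, 38.25, 40.4 and 44.85 in Smad2_KO2 (0.70 ± 0.17 and 0.69 ± 0.17, limma adjusted p = 0.00392 and 0.00455). It kept its call under size factors, TMM and loess and lost it with DESeq2. The other called sites, 40.3 and 35.9 kb from the start, went from 16.0 ± 2.24 to 25.5 ± 2.48 and 27.0 ± 3.24 and from 28.7 ± 3.60 to 42.0 ± 5.17 and 43.7 ± 7.28, and lost their calls under 10 and 14 of 27 alternatives. In Ctrl 1 of 44 was called (2.27%, against 7.15% of all). This interval, chr1:136973001-136973201, went from 20.3 ± 3.72 to 31.2 ± 1.95 and 32.0 ± 2.86, a call lost under 18 of 27 alternatives.

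To compare genes with each other on 1 value each, the intervals of a gene and its 20 kb flanks were summed in every library, for all protein-coding genes. In Ctrl, Tbx3 (WT 1183 ± 78.0, Smad2_KO1 1322 ± 65.7, Smad2_KO2 1358 ± 65.7) and Zfp42 (1447 ± 143, 1663 ± 47.6 and 1613 ± 68.5) were called higher. Their log2 fold changes were 0.16 ± 0.06 and 0.20 ± 0.06 for Tbx3 (limma adjusted p = 0.0448 and 0.0115) and 0.21 ± 0.06 and 0.16 ± 0.06 for Zfp42 (0.00921 and 0.0454). In Paused, Nanog was called lower (1749 ± 85.9, 1594 ± 31.3 and 1577 ± 35.2) and Nr5a2 higher (1279 ± 69.1, 1387 ± 31.7 and 1428 ± 60.1). Log2 fold changes were -0.13 ± 0.04 and -0.15 ± 0.04 for Nanog (limma adjusted p = 0.0176 and 0.00762) and 0.12 ± 0.05 and 0.16 ± 0.05 for Nr5a2 (0.0488 and 0.00755). Over all gene windows 8.34% were called in Ctrl (3.35% higher and 4.99% lower, of 20384) and 27.1% in Paused (6.59% higher and 20.5% lower, of 20232). The Nanog window also holds the neighbouring gene Slc2a3. With size factors and with TMM the higher window calls were lost: 0 of 1 call in Ctrl with size factors and 0 of 3 in Paused with either were higher, and TMM gave 0 calls in Ctrl. With loess all 4 calls in Ctrl and all 3 in Paused were higher, and the Nanog call was lost. The call of Tbx3 was lost under 11 of 22 alternatives, that of Zfp42 under 12, that of Nr5a2 under 15 and that of Nanog under 4. Leaving out single libraries gave 0 to 2 window calls in each table. Ranked by the smaller of the changes in the 2 lines, Tbx3 came first among the called windows, level with Zfp42 at 2 decimals (0.16), and the genes whose 4 window changes lay closest to those of Tbx3 among 20182 genes were Lhx4, Spesp1 and Klhdc7a, at Euclidean distances of 0.007, 0.013 and 0.023.

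**Figure D5:**
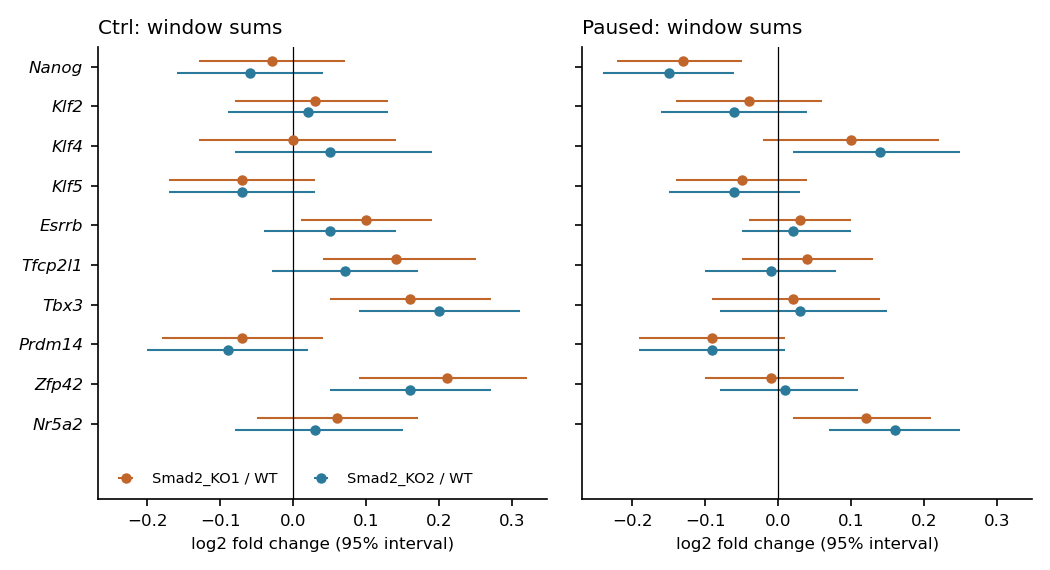
Log2 fold change of the summed accessibility of each gene with its 20 kb flanks (horizontal axis, with 95% intervals), for each knockout line over WT, in Ctrl (left) and Paused (right). Tbx3 and Zfp42 in Ctrl and Nr5a2 in Paused lie to the right of 0, and Nanog in Paused to the left, with the whole interval, in both lines.

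Levels in Ctrl and Paused can only be set side by side, because each table was scaled on its own. Over the 9 genes whose strongest Ctrl interval had a match, the WT mean in Paused was between 1.04 times (Klf5, 714 and 746) and 1.95 times (Nr5a2, 137 and 267) that in Ctrl. In the knockouts these ratios ran from 1.01 (Klf5) to 1.95 (Nr5a2). Over all 140 matched intervals of the 10 genes the median ratio was 1.19 in WT and 1.13 in the knockouts, and over all 215826 matched intervals it was 1.06 and 1.08.

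Other genes of the network and genes of later states were counted in the same way. Around 12 further naive network genes (Pou5f1, Sox2, Sall4, Stat3, Nr0b1, Gbx2, Dppa3, Dppa4, Dppa5a, Tcl1, Tdh and Fgf4), 11 of 162 tested intervals were called in Ctrl (6.79%, 2 higher and 9 lower) and 19 of 147 in Paused (12.9%, 8 higher and 11 lower). Of all intervals 7.15% and 13.9% were called. The median log2 fold changes around these genes were -0.01 and 0.04, against 0.08 and 0.12 over all. The windows of Gbx2 and Tdh were called lower in Ctrl, and those of Sox2 and Tdh in Paused. Around 8 formative and primed genes (Fgf5, Otx2, Dnmt3a, Dnmt3b, Pou3f1, Sox3, Zic2 and Lef1), which are switched on as cells leave the naive state, 14 of 143 were called in Ctrl (9.79%, 5 higher and 9 lower) and 25 of 143 in Paused (17.5%, 15 higher and 10 lower), with medians of -0.04 and 0.03, against the same 7.15% and 13.9% called and medians of 0.08 and 0.12 over all. The window of Pou3f1 was called lower in both tables and those of Dnmt3b and Otx2 in Paused. Of all gene windows 4.99% were called lower in Ctrl and 20.5% in Paused.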

How the data were processed

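The deposited values are a signal: the authors divided the reads of each interval by a factor of its library, rounded the quotient, and did so separately for Ctrl and Paused. That unit was read from the values: at least 99.4% of the values in a column were whole multiples of 1 step (tolerance 0.005 reads), which gave back reads and depth. In 4 of 24 columns the step was close to 1, where scaling and rounding look alike. Per the submitters' processing notes, reads were handled with FastQC, Trim Galore, Bowtie2 2.4.1, MACS3 3.0.3 and DiffBind 3.16.0 on mm10. Read shifting for the Tn5 cut and duplicate handling are not given in the sources used here. Per the file headers, each table also holds the authors' own log2 fold change of knockout against WT with its p-value and FDR, which were not used.

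Intervals were assigned to a gene when they overlapped its body, extended by 20 kb, in a RefSeq gene table of GRCm38.p6, the build also called mm10. That table gives no exons, so exon and intron are not distinguished. Strand came from the promoter table where a gene had an entry. For Klf5, Tbx3 and Prdm14 the ends are named by coordinate. Of the 10 genes, 7 had a promoter entry.

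The plan allowed for counts, but the tables hold normalized values, for which it named limma. Linear models were fitted per table in R 4.3.3 with limma 3.58.1, whose eBayes step used a trend. The response was log2(value + 1) in all 12 libraries and the only factor was line, for intervals with at least 10 normalized reads in 4 or more libraries. Benjamini-Hochberg adjustment ran over all tested intervals. Fold changes on this scale understate the change of low intervals. An interval was called in both knockout lines at an adjusted p under 0.05 and the same sign in each. Window sums were fitted in the same way over all protein-coding genes, and windows of neighbouring genes share intervals. Intervals were matched across tables at a mutual overlap of at least 50%. Scripts were tested on simulated data. Alternatives included edgeR 4.0.16 and DESeq2 1.42.0 on the recovered reads, other scalings, filters and window sizes, and leaving out libraries.

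The plan was to name, per gene and table, the strongest interval, the interval over the start (or the strongest in or within 1 kb of the gene), the largest higher and lower call, and their matches. Not compared between lines above are the starts of Klf4, Tfcp2l1 and Nr5a2 in Ctrl and the strongest interval in or within 1 kb of Prdm14. None of these was called in both lines. The Prdm14 one was lower in Ctrl in Smad2_KO2 alone (limma adjusted p = 0.048, and 0.321 in Smad2_KO1). Other called sites were named after their values were seen. The genes and gene lists were chosen with earlier results of these data known.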

Additional observations from a re-analysis of the deposited data

Results flagged for a closer look

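In 288 groups of 4 libraries, 12 had a library standing apart from the other three by Dixon's test at the 95% level, where chance flags about 1 in 20 groups. Single intervals gave 8 of them. At the Esrrb interval 90.0 kb from the outer start in Ctrl, Smad2_KO2 replicate 4 held 101 and the others 132 to 135. At the Tfcp2l1 start in Ctrl, WT replicate 3 held 154 against 197 to 205. In the high-coordinate flank of Prdm14 in Ctrl, WT replicate 3 held 232 against 207 to 210.4. At Nr5a2 in Ctrl, the interval 40.3 kb from the start held 25.5 in Smad2_KO2 replicate 2 against 13.1 to 15.0, and the one over its inner start held 153 in WT replicate 1 against 119.7 to 124. At Esrrb in Paused, the interval 19.9 kb from the outer start held 10.8 in WT replicate 3 against 5.30 to 5.40, and the one at 45.1 kb held 33.9 in Smad2_KO2 replicate 4 against 45.9 to 46.5. At the Nr5a2 interval called with the largest change in Paused, Smad2_KO2 replicate 3 held 23.6 against 10.9 to 12.8, and that call was lost without this library.

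Window sums gave the other 4. In Ctrl the Klf5 sum was 2152 in Smad2_KO2 replicate 4 (others 1972 to 2002), the Tfcp2l1 sum 2602 in Smad2_KO1 replicate 3 (2280 to 2298) and the Tbx3 sum 1260 in Smad2_KO2 replicate 2 (1385 to 1402). In Paused the Klf2 sum was 1989 in Smad2_KO1 replicate 4 (1823 to 1849).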

How the results depend on the processing

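Counts below are of intervals of the 10 genes called in Smad2_KO1, in Smad2_KO2 and in both lines, and then of windows called in both. The reported counts were 24, 15, 11 and 2 in Ctrl and 30, 35, 21 and 2 in Paused. A pseudocount of 0.1, no filter, library totals, edgeR and counting only intervals nearest to the gene kept every interval count within 1.5 times of these, and library totals both window counts. The share of calls that were higher did move with edgeR, from 15 of 21 to 6 of 19 in both lines in Paused. Asking for a log2 fold change of 1 or more in size left 3, 2 and 1 in Ctrl and 7, 4 and 4 in Paused. Of all intervals it left 2.78%, 2.57% and 1.51% in Ctrl and 4.3%, 4.18% and 2.65% in Paused. DESeq2's test gave 10 in Smad2_KO1 in Ctrl and 18, 16 and 11 in Paused, against 6.6% and 12.1%, 12.1% and 8.89% of all. Fits of only the compared groups gave 15 in Smad2_KO1 in Ctrl and 22 in Smad2_KO2 in Paused, against 9.73% and 15% of all. Window size also changed the number tested, 239 in Ctrl and 209 in Paused with 20 kb flanks. Of 122 in gene bodies alone in Ctrl, 14 were called in Smad2_KO1 and 7 in both lines. In Paused gene bodies gave 18 of 105 in Smad2_KO2, and 5 kb flanks gave 22 of 132 there and 1 window in Ctrl. Flanks of 50 kb gave 48, 36 and 27 of 407 in Ctrl and 64, 68 and 46 of 380 in Paused. Of all intervals 11.6%, 10.7% and 7.15% were called in Ctrl and 19.4%, 19.3% and 13.9% in Paused, whatever the window. With the 8 knockout libraries as 1 group the counts were 30 of 239 and 50 of 209, against 17.6% and 28.7% of all intervals. With the knockout libraries of a number averaged they were 21 and 31, against 13% and 19.8% of all. Without WT replicates 3 and 4 the Ctrl counts were 12 and 9 in the single lines and 0 windows, with 1 window in Paused. Of all Ctrl intervals 5.6% and 5.02% were then called in the single lines. Without WT replicates 1 and 2, Ctrl had 23 in Smad2_KO2 and 19 in both lines, against 11.1% and 8.09% of all intervals. Window calls in Ctrl were 1 with size factors, 0 with TMM and 4 with loess. Leaving out each library in turn gave 10 to 24, 10 to 15, 6 to 12 and 0 to 2 in Ctrl and 18 to 38, 17 to 33, 13 to 24 and 0 to 2 in Paused. Between the knockout lines every alternative gave 0. Of the intervals named, 2 that were not called in the reported fit were called higher with loess. These were the Paused intervals at the Klf5 end and the Zfp42 start, with log2 fold changes of up to 0.20 each. Other uncalled intervals crossed 0 under some alternatives without such a call. The strongest Nanog interval in Paused, at -0.13 in both lines, ran from -0.23 to 0.11. Why counts moved was not tested.

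A replicate block (the number as a second factor) gave 26, 17, 12 and 2 in Ctrl and 41, 36, 28 and 2 in Paused. Of all intervals it called 12.8%, 11.8% and 7.97% in Ctrl and 22.3%, 22.2% and 16.2% in Paused. The labels give the groups the same numbers without saying what a number shares. Over the 12 same-numbered pairs of each table, WT pairs included, the correlation of deviations was low. It ran from -0.0057 to 0.109 in Ctrl, over 0.1 in 1 of 12 pairs, and from -0.0074 to 0.187 in Paused, over 0.1 in 2 of 12. Between the knockout lines in Paused, all same-numbered pairs were closer than differently numbered ones (chi-square per degree of freedom 1.001 to 1.074, against 1.099 to 1.487). In Ctrl these ranges overlapped (1.016 to 1.270, against 1.117 to 1.534). Calls in the 2 knockout lines are not independent of each other, because both lines were compared with the same WT libraries and a shared spread. Whether the closeness of same-numbered libraries adds to this was not tested. Several sites named as called hold under 10 normalized reads in WT, where counting noise weighs most.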
